A study of Mus musculus with 30 samples.

Results

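Hao2 encodes the peroxisomal hydroxyacid oxidase 2, 1 gene of the 46078 in the count table, and it was followed in all 30 colon libraries of the series. It was found by its gene name in the tables of TPM (a level scaled to gene length and to the total of each library) and by its gene identifier, ENSMUSG00000027870, in the table of read counts. Hao2 was selected on its measured pattern in these same libraries, so its levels and its differences between groups are given here as a description with their errors, and no test is applied to them. Peroxisomal oxidases take electrons from their substrate and pass them to oxygen, which yields hydrogen peroxide that catalase then breaks down. Hao2 acts on 2-hydroxy acids, mostly long-chain 2-hydroxy fatty acids, whereas its paralog Hao1 oxidizes glycolate in liver. Hao2 is best known from kidney, and peroxisomes of the colon epithelium take part in the shortening of very long and branched fatty acids.

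All animals were C57BL/6J mice and each gave 1 library from colon, with 6 libraries in each of 5 groups. Males and females were fed a control diet (CD) or a high-fat diet (HFD) for 13 weeks and were injected with vehicle, and one more group of HFD males received estradiol (E2) at 0.5 mg/kg, as 9 injections over the last 3 weeks. The groups are written CD F, CD M, HFD F, HFD M and HFD+E2 M. The females had intact ovaries, E2 was given only to HFD males, and whole tissue was used, so that a lower level may come from fewer cells of a type or from less RNA per cell, which cannot be told apart. Between 8667177 and 17243712 reads per library were counted on genes (median 11530915.5), of which 26.1 to 38.0% fell on mitochondrial genes.

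Genes of stratified squamous epithelium, such as the keratin genes Krt5 and Krt13, set 6 libraries apart, and these were HFD F replicates 1, 3, 4 and 5 and HFD M replicates 2 and 4. Such cells line the anal canal and not the colon. The score of 14 such genes, their mean log2 CPM (counts scaled to library size), lay between 2.19 and 6.48 in those libraries and between -2.52 and -0.65 in the other 24. The differences of Hao2 that use these libraries are therefore given with and without them, and values of other named genes are given without them where a call changed. The colon markers were present in every group, with summed levels of the absorptive colonocyte genes between 624 and 2015 TPM and of the goblet cell genes between 2769 and 7333 TPM. The liver and kidney genes summed to 13.9 to 39.3 TPM, and Fgb and Kap of that list had no count in any library.

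The gene lies on the minus strand of chromosome 3, at chr3:98874521-98893239 in GRCm38, and no other annotated gene overlaps it. It has 1 annotated transcript, Hao2-201, with 9 exons and 2049 bases, of which 1059 bases in 7 exons code for 353 codons, the stop codon not included. The region around its start is shown because it is the sequence next to the gene whose RNA differed between the groups. The run below is the RefSeq promoter (GRCm38.p6, chr3:98893181-98893480, minus strand), from 250 bases before to 50 after the start site, and the capitals mark each match on either strand to GTTAAT, the half-site of the HNF1 factors of epithelium.
Hao2 promoter: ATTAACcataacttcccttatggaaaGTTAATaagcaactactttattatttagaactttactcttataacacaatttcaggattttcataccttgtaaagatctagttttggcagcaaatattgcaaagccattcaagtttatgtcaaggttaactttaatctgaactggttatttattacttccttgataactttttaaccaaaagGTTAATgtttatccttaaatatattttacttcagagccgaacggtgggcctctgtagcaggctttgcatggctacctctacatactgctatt
This stretch was rich in A and T, with a GC content of 32.3% against a median of 52.7% over 32851 promoters of the same length. GTTAAT was matched 3 times, beginning at positions -250, -224 and -42 from the start site, and 7.1% of all promoters held at least 1 match. This motif was picked after the sequence had been seen. The window held no match on either strand to the estrogen response element GGTCANNNTGACC (0.07% of all promoters) or its half-site GGTCA (40.5%), to the androgen response element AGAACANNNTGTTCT (0.00913%), or to the PPAR response element AGGTCANAGGTCA (0.0396%). It also held none of the STAT site TTCNNNGAA (8.3%), the E-box CACGTG (7.15%) or the full HNF1 site GTTAATNATTAAC (0.00913%). The half-sites overlap the full sites that contain them, and these are matches of letters in a window, not sites shown to be bound.

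Hao2 was well measured in colon. Its counts ranged from 706 to 2482 per library, for which counting error alone is 2.01 to 3.76%, well below the spread between animals. By TPM it stood between rank 387 and rank 1616 among the genes listed in a library. Its paralog Hao1 had 0 to 2 counts in every library, so nearly all RNA of this pair of oxidases came from Hao2.

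**Figure D1:**
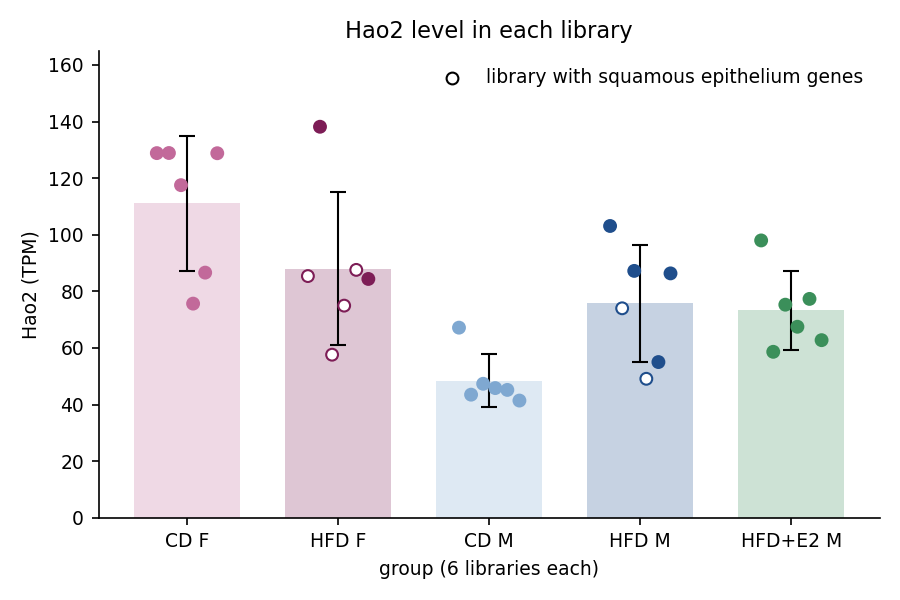
Hao2 level in TPM (vertical axis) in each of the 30 libraries (points, 6 per group), with the group mean (bar) and SD (error bar). Open points are the 6 libraries with squamous epithelium genes. All 6 CD F libraries sit above all 6 CD M libraries, and the 3 HFD groups lie between the CD means.

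In CD F, Hao2 ranged from 75.7 to 129 TPM with a median of 123 TPM (mean 111 ± 23.8, SD, n = 6). In CD M it ranged from 41.4 to 67.2 TPM with a median of 45.5 TPM (mean 48.4 ± 9.42, SD, n = 6). The lowest CD female was above the highest CD male, so the groups did not overlap, and CD M was the lowest of the 5 groups. The share of all genes that separate these groups in this way was not counted. In HFD F the level ranged from 57.6 to 138 TPM with a median of 84.9 TPM (mean 88.0 ± 26.9, SD, n = 6). In HFD M it ranged from 49.1 to 103 TPM with a median of 80.2 TPM (mean 75.8 ± 20.7, SD, n = 6). The HFD males and females overlapped broadly, and HFD F held the highest single value of the series. In HFD+E2 M it ranged from 58.6 to 98.0 TPM with a median of 71.4 TPM (mean 73.3 ± 14.1, SD, n = 6).

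By mean TPM the order was CD F, HFD F, HFD M, HFD+E2 M and CD M. Each neighbouring pair in this order overlapped, and CD F against CD M was the only pair of groups that did not overlap in TPM. In CPM from the counts, CD M (68.3 to 97.6) and HFD+E2 M (113 to 152) did not overlap either. For this pair too, the share of all genes without overlap was not counted. The coefficient of variation was 30.6% in HFD F and 27.3% in HFD M, the groups with squamous epithelium genes, against 21.5% in CD F, 19.4% in CD M and 19.2% in HFD+E2 M.

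The sex difference of Hao2 was large on CD. Its log2 fold change in CD F relative to CD M was 1.26 ± 0.10 (SE, edgeR, 6 libraries per group), 2.4-fold higher in females, and all 6 females exceeded all 6 males. Of the 14922 genes tested, only 41 had a log2 fold change at least as high, Hao2 included. Leaving out any 1 library gave values from 1.22 to 1.33. The CD groups also differed in tissue makeup, where 9.15% of all genes were called. All 9 smooth muscle genes were called lower in CD F, as were 5 of 8 fibroblast genes and 3 of 11 absorptive colonocyte genes. So were 3 of 9 macrophage and 2 of 7 endothelium genes. Called higher were 4 of 8 goblet cell, 4 of 8 enteroendocrine, 4 of 9 B cell and 2 of 3 T cell genes. With the smooth muscle score as a covariate, the log2 fold change of Hao2 was 1.09 ± 0.15.

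Under HFD the sexes lay closer together. The log2 fold change of Hao2 in HFD F relative to HFD M was 0.29 ± 0.17 (SE, 6 libraries per group), and the female was higher in 22 of the 36 pairs of a female and a male library. At least as high a log2 fold change was found for 1663 of 15179 genes. Without the 6 libraries with squamous epithelium genes, which left 2 females and 4 males, it was 0.46 ± 0.20. The smooth muscle score as a covariate gave 0.20 ± 0.16.

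**Figure D2:**
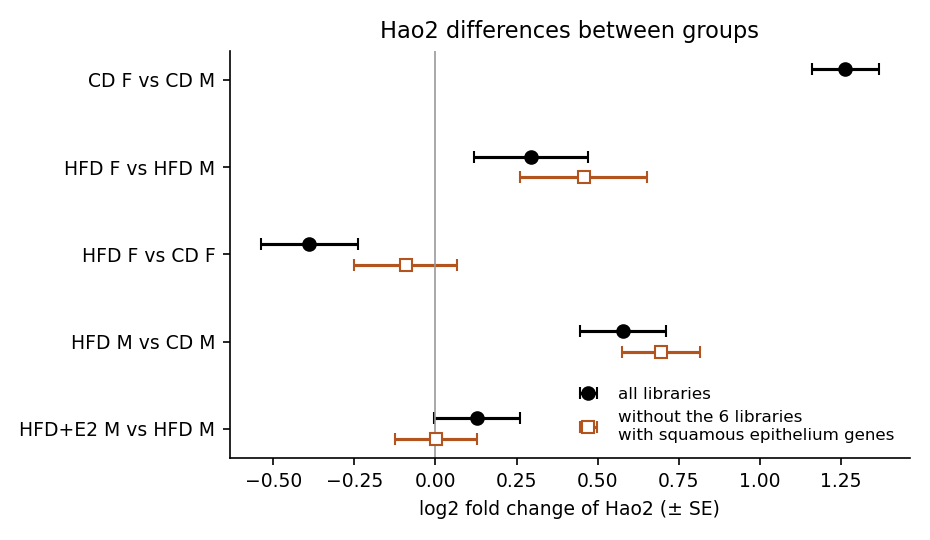
Log2 fold change of Hao2 (horizontal axis, with SE) in each of the 5 comparisons, with all libraries (filled circles) and without the 6 libraries with squamous epithelium genes (open squares, not drawn for CD F vs CD M, which has none of them). The fall in HFD females moves from -0.39 to -0.09 and the rise in HFD males from 0.58 to 0.69.

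The diet response was read in each sex separately. In males, Hao2 was higher on HFD, with a log2 fold change of 0.58 ± 0.13 (SE, 6 libraries per group), 1.49-fold, and 4 of the 6 HFD males were above every CD male. Of 14991 genes, 196 had a log2 fold change at least as high. With the smooth muscle score as a covariate the log2 fold change of Hao2 was 0.46 ± 0.13. Without HFD M replicates 2 and 4 it was 0.69 ± 0.12, and without any 1 library it was between 0.50 and 0.66. The rise was therefore present among the males whose libraries held no squamous epithelium genes, where Hao2 ranged from 55.0 to 103 TPM. One CD male, replicate 1, reached 67.2 TPM and overlapped with HFD M.

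In females, Hao2 was lower on HFD in the full set, with a log2 fold change of -0.39 ± 0.15 (SE, 6 libraries per group), and 335 of 15061 genes had one at least as low. The 4 HFD females with squamous epithelium genes ranged from 57.6 to 87.6 TPM and the other 2 were at 84.4 and 138 TPM. Without those 4 libraries the difference from CD F was -0.09 ± 0.16, and with the squamous score as a covariate and all 12 libraries it was -0.04 ± 0.16. The smooth muscle score as a covariate gave -0.31 ± 0.15. Leaving out HFD F replicate 2 alone, the female at 138 TPM, gave -0.51 ± 0.13. Only 2 HFD females had no squamous epithelium genes, and the one at 84.4 TPM lay within the range of the other 4. Squamous epithelium and differences between single animals therefore cannot be told apart here.

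The difference between these responses, the female minus the male log2 fold change over the 24 vehicle libraries, was -0.97 ± 0.21 (SE). Without the 6 libraries with squamous epithelium genes it was -0.80 ± 0.20, and with the smooth muscle score as a covariate -0.77 ± 0.21. It shares its CD libraries with the sex comparison on CD, so neither value backs the other.

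Estradiol was compared in HFD males only. Hao2 ranged from 113 to 152 CPM in HFD+E2 M and from 79.2 to 146 CPM in HFD M, and the groups overlapped. The log2 fold change was 0.13 ± 0.13 (SE, 6 libraries per group), smaller than its spread, and 4548 of 15010 genes had one at least as high. On TPM the sign turned, with a mean difference of -0.02 on the log2(TPM + 0.1) scale, and without HFD M replicates 2 and 4 the log2 fold change was 0.00 ± 0.13. The smooth muscle score as a covariate gave 0.21 ± 0.12 and a replicate block 0.15 ± 0.11. Over these alternatives the value lay between -0.02 and 0.21, and an effect of E2 on Hao2 was not tested. The same HFD M libraries enter the diet and the E2 comparisons.

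**Figure D3:**
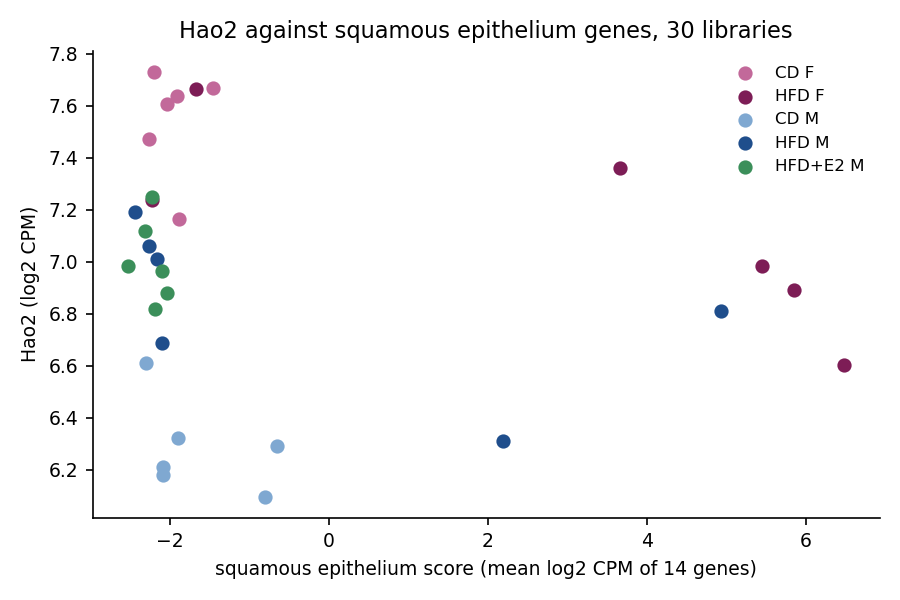
Hao2 in log2 CPM (vertical axis) against the squamous epithelium score, the mean log2 CPM of 14 genes (horizontal axis), in the 30 libraries coloured by group. The 6 libraries with a score above 2 are HFD libraries, and CD M sits lowest among the rest.

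Within groups, Hao2 moved with the makeup of the tissue. After each group's mean was removed, Pearson's r over the 30 libraries was -0.60 with the squamous epithelium score (Spearman's rho -0.56), -0.49 with smooth muscle (rho -0.47) and -0.54 with genes of distal hindgut position (rho -0.48). It was 0.61 with goblet cell genes (rho 0.44), 0.47 with absorptive colonocyte genes (rho 0.37) and 0.45 with B cell genes (rho 0.32). The other scores lay between -0.29 and 0.24. Over single genes with a mean of at least 1 TPM, the 95th percentile of r with Hao2 was 0.56, so values of this size were common. HFD F replicate 2 and HFD M replicate 4 lay farthest from their group means in Hao2. Without them the values of the 3 negative scores were -0.47, -0.36 and -0.43. Those of goblet cell, absorptive colonocyte and B cell genes were then 0.41, 0.34 and 0.29. Sequencing depth gave 0.17 and the mitochondrial share -0.19. These are descriptions, since each library contributes both values and the lists share epithelium and muscle as their source. The part of tissue makeup in the group differences of Hao2 was not tested beyond the fits with and without these libraries and scores.

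The other enzymes of 2-hydroxy acids gave no call. Of 8 listed, 6 passed the filter on low counts, and none was called in any of the 5 comparisons, where a call is an unadjusted p below 0.05 with a log2 fold change above 0.4 in either direction (edgeR's quasi-likelihood test). By comparison, 2.9 to 9.15% of all genes were called, so no call among 6 genes says little about this family. Lactate dehydrogenase A (Ldha), the most abundant, averaged 386 to 468 TPM by group, and its log2 fold changes lay between -0.20 and 0.12. D2hgdh, a mitochondrial dehydrogenase of D-2-hydroxyglutarate, had log2 fold changes between -0.01 and 0.08.

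Over the 7 lists of related genes 76 of 94 were tested in each comparison, Hao2 left out. In HFD F against CD F, 3 were called, all higher on HFD, or 3.95% beside 3.67% of all 15061 genes, and none passed an adjusted p of 0.05, which 0.0199% of all genes did. In HFD M against CD M, 5 were called, all higher on HFD, or 6.58% beside 2.9% of all genes, with 0 past the adjusted threshold among them and 0% of all genes. In HFD+E2 M against HFD M, 2 were called, both lower with E2, or 2.63% beside 5.87%, with none past the adjusted threshold, as for 0.00666% of all genes. In CD F against CD M, 3 were called, or 3.95% beside 9.15%, and 2 of these passed the adjusted threshold, which 2.92% of all genes did. In HFD F against HFD M, 1 was called, or 1.32% beside 3.09%, with none past the adjusted threshold, which 0.0988% of all genes passed. Shares of the lists were therefore near or below those of all genes, except in HFD M against CD M. There, 2 were called without CD M replicate 4 or without HFD M replicate 2, 3 without CD M replicate 2, 3 or 5, and 2 without HFD M replicates 2 and 4 together, beside 3.64% of all genes. In HFD F against CD F, 1 was called, Cd36, without the 4 libraries with squamous epithelium genes.

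**Figure D4:**
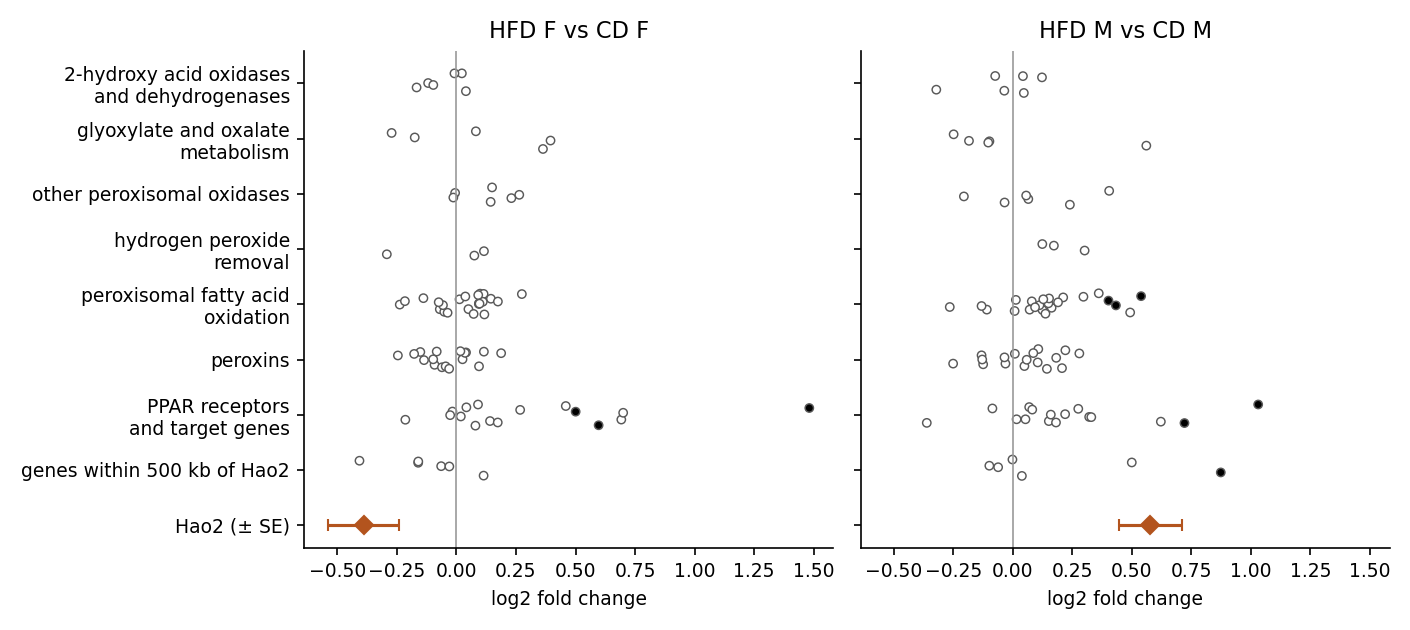
Log2 fold changes (horizontal axis) of the tested genes of each list and of the genes within 500 kb of Hao2 in HFD F vs CD F (left) and HFD M vs CD M (right), with called genes filled, and Hao2 with its SE at the bottom. The genes called in females are 3 PPAR target genes that rose, while Hao2 lies below 0 there, and 1 neighbour, Hsd3b3, was called in males.

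Among the peroxisomal fatty acid oxidation genes, 3 of 23 were called in HFD males, all higher, or 13% beside 2.9% of all genes. None was called in HFD females, beside 3.67% of all genes. The log2 fold change was above 0 for 20 of the 23 in males and for 15 in females. Phyh, the phytanoyl-CoA hydroxylase of alpha-oxidation, averaged 79.1 ± 14.6 TPM in HFD M and 53.4 ± 5.16 TPM in CD M (SD, n = 6), a log2 fold change of 0.54 ± 0.10 (SE, edgeR, adjusted p = 0.149). Nudt19, a coenzyme A diphosphatase, had a log2 fold change of 0.43 ± 0.16 (adjusted p = 0.767), and Crot, the carnitine octanoyltransferase that exports shortened acyl chains, had 0.40 ± 0.13 (adjusted p = 0.704). Without HFD M replicates 2 and 4, Phyh was at 0.58 ± 0.11 (adjusted p = 0.173), and Nudt19 and Crot, at 0.38 and 0.35, were no longer called. Crot was lower with E2, with a log2 fold change of -0.44 ± 0.14 (adjusted p = 0.454). It was at -0.40 without those libraries and was then no longer called. Acot4, a peroxisomal acyl-CoA thioesterase, was lower in HFD F than in HFD M at -0.59 ± 0.25 (adjusted p = 0.872), but at -0.12 ± 0.39 and not called without the 6 libraries. None of the 17 peroxins, the proteins that build peroxisomes, was called in any comparison, beside 2.9 to 9.15% of all genes. At those shares few calls would be due among 17 genes.

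Of 16 tested PPAR receptors and PPAR target genes, 3 were called higher in HFD females and 2 in HFD males, and none was called lower. These were 18.8% and 12.5%, beside 3.67% and 2.9% of all genes. The log2 fold change was above 0 for 13 of the 16 in females and for 14 in males. Angptl4, a lipoprotein lipase inhibitor, had log2 fold changes of 1.48 ± 0.37 in females (adjusted p = 0.412) and 1.03 ± 0.34 in males (adjusted p = 0.704). Its level was low, at 2.13 ± 1.38 TPM in HFD F and 0.745 ± 0.560 TPM in CD F, and without the 6 libraries the female value was 0.68 and no longer called. Cd36, a fatty acid transporter, rose in HFD F at 0.60 ± 0.17 (adjusted p = 0.496) and was lower in CD F than in CD M at -0.62 ± 0.16 (adjusted p = 0.0407), the reverse of Hao2, or at -1.04 ± 0.20 with the smooth muscle score as a covariate (adjusted p = 0.027). Pdk4, a kinase that blocks pyruvate dehydrogenase, was at 0.50 ± 0.19 in females (adjusted p = 0.671) and at 0.11 without the 4 libraries. Acot1, a cytosolic acyl-CoA thioesterase, rose in HFD M at 0.72 ± 0.29 (adjusted p = 0.807), and was higher in CD F than in CD M at 0.61 ± 0.25 (adjusted p = 0.25), or at 0.48 and not called with the smooth muscle score as a covariate. Without HFD M replicates 2 and 4 its rise in males, at 0.53, was no longer called.

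Of 3 tested genes of hydrogen peroxide removal, none was called in any comparison. Of 5 tested glyoxylate genes, 1 was called, in CD F against CD M, or 20% beside 9.15% of all genes. Lists this short say little about either process. Catalase (Cat), which removes the hydrogen peroxide, was not called in any comparison, with group means of 25.1 to 29.4 TPM and log2 fold changes of 0.04 to 0.12. Hoga1, a mitochondrial enzyme on the route from hydroxyproline to glyoxylate, was the only glyoxylate gene called, and was lower in CD F than in CD M at -0.69 ± 0.17 (adjusted p = 0.0344). With the smooth muscle score as a covariate it was at -0.73 ± 0.26 (adjusted p = 0.172). Of 6 other tested oxidases of the peroxisome, 1 was called with E2, or 16.7% beside 5.87% of all genes. This was Pipox, a peroxisomal oxidase of pipecolic acid and sarcosine. Pipox was lower with E2 at -0.87 ± 0.36 (adjusted p = 0.465), at 0.571 ± 0.481 TPM against 1.27 ± 0.546 TPM (SD, n = 6). Without HFD M replicates 2 and 4 it was at -0.91 and was still called.

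Hao2 sits beside a cluster of genes for 3β-hydroxysteroid dehydrogenases, enzymes of steroid hormone synthesis and breakdown. The midpoints of 33 other genes lay within 500 kb, and 6 of them were tested. The nearest genes on either side, Hsd3b1 and Gm12433 at 27.9 and 37.2 kb and 5730437C11Rik and Gm12440 at 55.6 and 168 kb, had too few counts for a test, with at most 7 counts in a library. Of the 6 tested neighbours, 1 was called in CD F against CD M, or 16.7% beside 9.15% of all genes. In HFD M against CD M 1 was called as well, or 16.7% beside 2.9% of all genes. Hsd3b3, 132 kb away at chr3:98741523-98763127 on the same strand, was the only neighbour called. In CD F it ranged from 9.46 to 14.1 TPM with a median of 11.2 TPM, and in CD M from 5.99 to 12.7 TPM with a median of 7.05 TPM. The groups overlapped through 1 male, replicate 1, which was also the highest CD male for Hao2.

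The log2 fold change of Hsd3b3 in CD F relative to CD M was 0.63 ± 0.13 (SE, edgeR, adjusted p = 0.0127). In HFD M relative to CD M it was 0.87 ± 0.20 (called, edgeR adjusted p = 0.356), with 9.02 to 23.7 TPM in HFD M, and in HFD F relative to CD F it was -0.16 ± 0.17 (adjusted p = 0.999). Its female minus male diet response was -1.04 ± 0.28 (edgeR adjusted p = 0.41). Without the 6 libraries with squamous epithelium genes, the male value was 1.03 ± 0.19 (adjusted p = 0.173), the female value was 0.22 ± 0.15, of the other sign, and the difference was -0.83 ± 0.28. E2 gave -0.09 ± 0.18 (adjusted p = 0.868), and -0.26 ± 0.18 without HFD M replicates 2 and 4. With the smooth muscle score as a covariate, Hsd3b3 in CD F relative to CD M was at 0.56 ± 0.19 and no longer passed the adjusted threshold (adjusted p = 0.158). Hsd3b2, next to it, had log2 fold changes of 0.35 ± 0.23 in CD F relative to CD M and 0.50 ± 0.30 in HFD M relative to CD M, and was not called. The Hsd3b genes are close copies, so reads may be split among them and their values are uncertain. With Hao2, Hsd3b3 had an r of 0.76 within groups (rho 0.63) and 0.46 without the 6 libraries.

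Genes that followed Hao2 within groups were ranked by Pearson's r of log2 CPM after the group means were removed, among 13713 genes with a mean of at least 1 TPM. These correlations over 30 libraries are descriptions, as depth, normalization and tissue makeup are shared by both genes of a pair. High values were common, with 1142 genes above 0.5 and 936 below -0.5. The 8 highest were Ccser1 (r = 0.82, rho = 0.76), Ces2c (0.81, rho 0.75), Asb11 (0.80, rho 0.80), Apob (0.80, rho 0.74), Tmc5 (0.80, rho 0.82), Il18 (0.80, rho 0.81), Scin (0.80, rho 0.63) and Gm9994 (0.79, rho 0.65). Among them are Ces2c, a carboxylesterase of lipid and drug esters, Apob, the structural protein of lipoproteins, Il18, an epithelial cytokine, and Scin, an actin-severing protein. In each of the 5 groups taken alone all but Apob were positively related to Hao2, and Apob was negative in CD F.

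**Figure D5:**
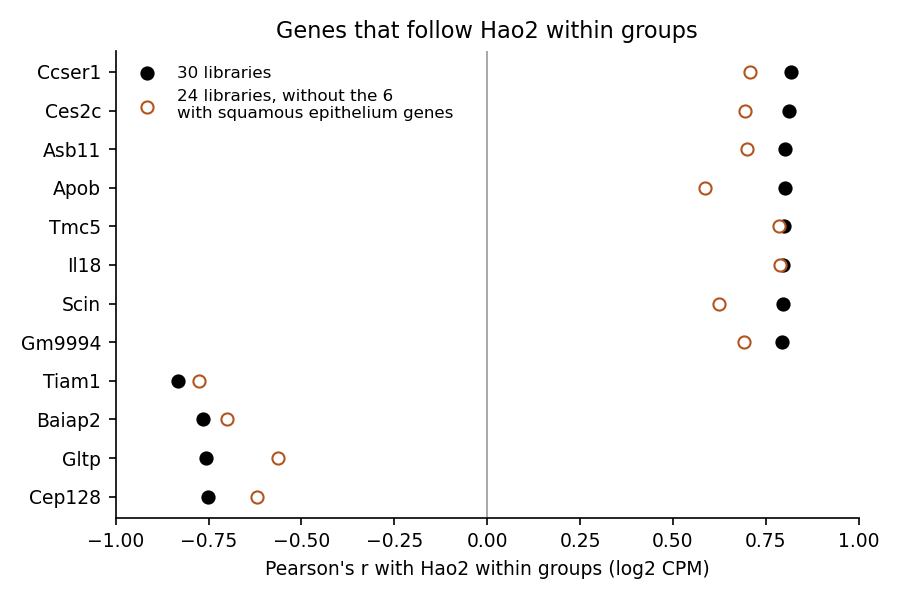
Pearson's r with Hao2 within groups (horizontal axis) for the 8 genes with the highest and the 4 with the lowest r, over 30 libraries (filled) and over the 24 without squamous epithelium genes (open). Tmc5 and Il18 hold their values at 0.79, while Apob moves to 0.59.

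The 4 lowest were Tiam1 (r = -0.83, rho = -0.81), an activator of the GTPase Rac, Baiap2 (-0.76, rho -0.74), Gltp (-0.76, rho -0.67), a glycolipid transfer protein, and Cep128 (-0.75, rho -0.72), a centriole protein. Without the 2 libraries farthest from the mean of Hao2, the 8 highest lay between 0.68 and 0.78 and the 4 lowest between -0.81 and -0.66. Without the 6 libraries with squamous epithelium genes they lay between 0.59 and 0.79 and between -0.77 and -0.56, and none of the 8 was again among the 8 highest. In log2 TPM, Cep128 dropped to -0.13. The order of genes in this ranking therefore depends on which libraries enter.

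Scin was higher in CD F, at 46.7 TPM, than in CD M, at 28.6 TPM, with a log2 fold change of 0.84 (edgeR, adjusted p = 0.00131), or 0.66 with the smooth muscle score as a covariate (adjusted p = 0.0888). Of the 12 genes, 5 were called in CD F against CD M, beside 9.15% of all genes. Besides Scin, Asb11 and Gm9994 were called higher in CD F at 0.69 and 0.56 without passing the adjusted threshold (adjusted p = 0.0988 and 0.0997), and Tiam1 and Cep128 were called lower at -0.52 and -0.44 (adjusted p = 0.18 and 0.224). With the smooth muscle score as a covariate these 4 lost the call, at 0.08, 0.11, 0.04 and 0.12, and Tiam1 and Cep128 changed sign. In HFD F against CD F, 5 of the 12 were called as well, beside 3.67% of all genes, and none passed the adjusted threshold. Asb11, Il18 and Gm9994 were lower on HFD at -0.67, -0.43 and -0.50 (adjusted p = 0.624, 0.527 and 0.777). Tiam1 and Gltp were higher at 1.003 and 0.59 (adjusted p = 0.561 and 0.587). Without the 4 libraries with squamous epithelium genes, Tiam1 was at 0.06 and was not called. None of the 12 was called in HFD M against CD M, beside 2.9% of all genes. Without HFD M replicates 2 and 4, 3 were called there, Apob at 0.48, Ces2c at 0.48 and Cep128 at -0.46 (adjusted p = 0.639, 0.85 and 0.85), beside 3.64% of all genes. With E2, Scin was at 0.49 and Asb11 at 0.64 (adjusted p = 0.454 and 0.455), and both were called, beside 5.87% of all genes. Without HFD M replicates 2 and 4 they were at 0.32 and 0.48 and neither was called, beside 3.45% of all genes.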

How the data were processed

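The libraries were Ribo-Zero depleted TruSeq stranded RNA-seq. Per the submitters' notes, the authors trimmed reads with Trim Galore, aligned them to GRCm38 with STAR and counted them with featureCounts (strand setting and versions not given in the sources used here, apart from bcl2fastq 2.19.1.403). The deposited counts are whole numbers per gene without normalization, and the deposited TPM values, from StringTie, are used for levels. Groups came from the labels.

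Each comparison was fitted on 12 libraries with edgeR 4.0.16 (R 4.3.3): its filter on low counts, TMM normalization, robust dispersions, the quasi-likelihood test and Benjamini-Hochberg adjustment over all tested genes. SE is the log2 fold change divided by the root of F. A call needed p under 0.05 and a log2 fold change over 0.4. p-values measure the spread between 6 animals. CPM and log2 CPM (prior count 2) use TMM over 30 libraries. The fit was tested on simulated counts of CD F against CD M, with 200 changed genes among 14942. At an adjusted p under 0.05, 178 of the 200 were recovered, with 8 false calls. The raised genes had a median log2 fold change of 0.99. Smaller changes and the unadjusted call were not simulated. Alternatives were DESeq2 1.42.0, its size factors, no filter, all 30 libraries in 1 fit, a replicate block, TPM, no fold minimum and each library left out. Leaving out the 6 libraries with squamous epithelium genes, and score covariates, were added after seeing the data.

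Hao2 and all gene lists were chosen with earlier results of these data known. Named genes were Hao2, Hao1 and Cat, list members past the adjusted threshold or otherwise up to 3 past the call by size in a comparison, the 2 nearest genes on each side and called neighbours, and the 8 highest and 4 lowest r. Ldha, D2hgdh, Hsd3b2 and Acot1 on CD were named besides after their values were seen. Prac1 of the marker lists was not matched. Promoters are from RefSeq.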

Additional observations from a re-analysis of the deposited data

Results flagged for a closer look

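Within the 6 libraries of a group, 26 genes of the text were checked for a library far from the rest on the log2 CPM scale, over 125 sets of 6 values, and 5 values stood apart. Chance alone flags about 1 in 20 such sets. In CD M replicate 1, the male with the highest Hao2 on CD, Asb11 was at 6.26 TPM against a median of 2.46 TPM in the others, and Il18 was at 132 TPM against 59.3 TPM. Gm9994 was at 8.28 TPM in HFD M replicate 4, the lowest HFD male for Hao2, against 14.1 TPM. Baiap2 was at 2.79 TPM in CD F replicate 1 against 6.12 TPM, and Phyh at 59.8 TPM in CD M replicate 3 against 51.6 TPM. No value of Hao2 itself stood apart in this way in any group.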

How the results depend on the processing

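Of 116 alternative values of the differences of Hao2 between groups, 115 moved by less than 1 SD of its replicates, including all 60 with 1 library left out. The exception was HFD F against CD F with the squamous score as a covariate, at -0.044. This SD is the spread between animals and is larger than the SE, so the rule is loose. The move of HFD F against CD F from -0.39 to -0.09 without the libraries with squamous epithelium genes stayed within it. So did the turn of sign with E2 on TPM, from 0.13 to -0.02. The count of 115 therefore does not show that these 2 values are stable. Whether the replicate numbers pair the samples was not settled. Between 3 and 5 of 6 same-numbered pairs per comparison correlated above 0.1, and 1 to 4 of 6 samples correlated best with their own number. The mean correlation of same-numbered pairs was 0.21 in CD F against CD M, beside -0.04 for other pairs, and 0.16 beside -0.03 with E2. It was 0.13 beside -0.03 in HFD F against CD F and 0.09 beside -0.02 in HFD M against CD M. In HFD F against HFD M it was -0.04 beside -0.003. With a replicate block the log2 fold change of Hao2 in HFD M against CD M was 0.56 ± 0.10.

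The counts of related genes called were less stable. In the order HFD F against CD F, HFD M against CD M, HFD+E2 M against HFD M and CD F against CD M, they were 3, 5, 2 and 3, and with no fold minimum 6, 9, 5 and 8. At an adjusted p under 0.05 they were 0 in the first 3 and in HFD F against HFD M. With the replicate block they were 3 in HFD M against CD M and 4 with E2. No filter on low counts gave 4 with E2 and 2 in HFD F against HFD M. Without the 6 libraries with squamous epithelium genes they were 1, 2 and 1 in the first 3, and with the squamous score as a covariate 1 and 2 in the first 2. The smooth muscle score gave 2 in HFD M against CD M, 1 with E2, and 7 in each sex comparison. With 1 library left out they ranged from 3 to 6, 2 to 7, 1 to 7, 2 to 6 and, in HFD F against HFD M, 0 to 5. Among the extremes were the values without HFD F replicate 2 (6), CD M replicate 4 or HFD M replicate 2 (2) and HFD M replicate 6 (7 with E2 and 5 against HFD F). The cause was not tested.

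Of the 8 genes with the highest r, 4 were again among the 8 highest by Spearman's rho, 3 with log2(TPM + 1), 2 with the squamous score regressed out and 0 without the 6 libraries. Leaving out CD F, HFD F, HFD M or HFD+E2 M kept 3, 2, 5 and 4, and leaving out CD M kept 6.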

Other observations

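Gm12428, a pseudogene 62.5 kb from Hao2, was listed at 16.2 to 37.2 TPM but had 0 to 1 counts in every library, so the deposited tables disagree on it. Among the related genes, those with a high r with Hao2 within groups included Plin2, a lipid droplet protein (r = 0.66 over 30 libraries, 0.53 without the 6 libraries with squamous epithelium genes) and the peroxisomal fatty acid transporter Abcd3 (0.63 and 0.58), and the least like were Pex10 (-0.58 and -0.57) and Grhpr (-0.56 and -0.41), a glyoxylate reductase. These were chosen after their values were seen and carry no test.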
